A study of Mus musculus with 8 samples.

Results

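The ADAM and ADAMTS metalloproteinase family was examined in hepatic stellate cells of the mouse, the liver's retinoid-storing pericytes. Its members were all genes whose symbol begins with Adam, Adamts or Adamtsl followed by a digit and that were named alone by at least 1 probe set of the array's annotation. For genes with several probe sets, the one with the highest mean over the 8 arrays stood for the gene. The rule found 57 of the 19938 genes measured, of which 34 were Adam, 18 Adamts and 5 Adamtsl genes.

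Cells came from male Balb/c mice in 2 groups of 4 arrays. The quiescent group held cells of normal mice, which the labels give as 18 weeks old. The reverted group held cells of mice that received CCl4 (carbon tetrachloride, which injures hepatocytes and causes fibrosis) as 4 injections, 2 per week, each of 0.5 µl for every g of body weight, and that then rested for 45 days. The labels give the age of the reverted group as 16 weeks in its own description and as 18 weeks in a statement on both groups. The quiescent mice were normal animals, and no vehicle injection is named for them. After a density gradient, cells were sorted by the autofluorescence of their retinoids and lysed at once. The labels give no purity of the sort. No label says whether an array holds 1 mouse or a pool, so the p-values reflect the spread between arrays only, and that spread may be technical.

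ADAM proteins are membrane-anchored proteases with a disintegrin domain, and the catalytic ones cut the extracellular part of other membrane proteins, among them Notch receptors, growth factor precursors and cytokine receptors. ADAMTS proteins are secreted relatives with thrombospondin repeats that act on the extracellular matrix, where they process procollagens and cleave proteoglycans, and ADAMTS-like proteins share the repeats but lack the protease domain. In liver fibrosis the family is studied for matrix turnover and for the release of growth factors, and stellate cells are a known source of Adamts13, the protease that cuts von Willebrand factor. Tissue inhibitors of metalloproteinases, above all Timp3, restrain several of these enzymes.

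Adam12 and Adamts12 rose in reverted cells, by 1.36-fold and 1.31-fold, and no member fell. The widest difference of the family was that of Adam23, a non-catalytic adhesion protein of the nervous system, which stood 2.64-fold higher in reverted cells but did not pass the test. Adam9, a catalytic sheddase, stood 1.18-fold higher and missed the threshold narrowly. The best-known sheddases Adam10 and Adam17, the aggrecanases Adamts1, Adamts4 and Adamts5, and Adamts13 did not pass the test. Most of the 22 members known from testis and epididymis lay at the low end of the array's scale.

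Promoter sequences were matched for 31 of the 57 members in RefSeq's table of build GRCm38.p6. The 250 bases before the annotated start are printed for Adamts12, which rose, for Adam23, which had the widest difference, and for Adamts3, whose 16 probe sets all had a higher mean in reverted cells. Adam12 and Adam9 were not among the members matched. The sequences are written 5′ to 3′ on the strand of the gene, and the capitals mark CpG dinucleotides.

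Adamts12 promoter, chr15:11064523-11064772, + strand: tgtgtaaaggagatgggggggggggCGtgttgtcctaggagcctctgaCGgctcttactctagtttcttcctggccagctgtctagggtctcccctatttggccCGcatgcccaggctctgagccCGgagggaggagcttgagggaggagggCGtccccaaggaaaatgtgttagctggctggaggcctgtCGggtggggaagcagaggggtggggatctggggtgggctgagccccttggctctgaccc
Adam23 promoter, chr1:63445641-63445890, + strand: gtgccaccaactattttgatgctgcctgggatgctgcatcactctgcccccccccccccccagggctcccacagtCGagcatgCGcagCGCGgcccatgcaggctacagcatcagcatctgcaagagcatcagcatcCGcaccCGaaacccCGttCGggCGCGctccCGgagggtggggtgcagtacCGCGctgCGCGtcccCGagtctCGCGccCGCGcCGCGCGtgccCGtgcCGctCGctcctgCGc
Adamts3 promoter, chr5:89883335-89883584, - strand: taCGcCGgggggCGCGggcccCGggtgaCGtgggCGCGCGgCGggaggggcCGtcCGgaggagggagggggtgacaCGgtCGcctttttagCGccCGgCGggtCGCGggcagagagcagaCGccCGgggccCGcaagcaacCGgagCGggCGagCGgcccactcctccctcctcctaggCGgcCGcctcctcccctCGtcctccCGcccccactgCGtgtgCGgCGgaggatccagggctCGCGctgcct

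The Adamts12 window held 6 CpG dinucleotides, which is the median of all 32851 windows of this length in the table. The Adam23 window held 27 and the Adamts3 window 35, above the counts of 91.4% and 97.0% of all windows. The GC content was 63.2% for Adamts12, 70.4% for Adam23 and 78.0% for Adamts3, against a median of 52.4%. The GC box GGGCGG, searched on both strands, had 1 match in the Adamts3 window and 0 in the others, and 32.7% of all windows held it. The TATA box TATAAA (in 12.4% of all windows), the AP-1 element TGANTCA (6.75%), the TEAD element GGAATG (12.6%) and the E-box CACGTG (6.02%), also searched on both strands, had no match in these windows. These windows differ in base composition, and none of the motifs searched was common to them. With a single riser among them, they cannot tell risers from other genes.

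Array medians over all probe sets lay between 7.66 and 7.74 on the log2 scale. On the leading principal component over all genes, with 35.3% of the variance, quiescent array 4 lay at -0.2, between the other quiescent arrays (-14.0 to -8.8) and the reverted arrays (6.1 to 11.5). The defining stellate markers Lrat, Des and Pdgfrb had mean log2 levels from 12.8 to 14.1 in both groups (level percentiles 98.0 to 99.9). The hepatocyte gene Alb and the sinusoidal endothelial gene Clec4g also had bright probe sets, each at level percentile 95.2. Clec4g was the brightest of its list. Level percentiles ran from 35.7 to 95.2 over the 10 endothelial markers, of which 7 lay below the median level of all genes. Over the 12 hepatocyte markers they ran from 12.6 to 96.6, and 3 lay below that median. Since levels differed this widely within a list, levels on this array do not settle the purity of the cells. Alb ran from 10.84 to 12.64 in quiescent and from 12.07 to 12.59 in reverted arrays, and Clec4g from 11.82 to 11.92 and from 12.08 to 12.65, without overlap (adjusted p = 0.063). The mean of 11 stellate markers was 0.09 lower in reverted cells (13.20 to 13.26 against 13.28 to 13.33 by array), and 1 of them, Gfap, fell. Of 12 hepatocyte markers 1 rose (Hp) and 1 fell (Trf), and 11 means were higher in reverted cells. The array means of this list were 8.50 to 9.41 in quiescent and 9.13 to 9.60 in reverted cells. Of the mesothelial and portal fibroblast markers, 2 of 15 rose (Wt1 and Dpt) and 11 had a lower mean, and the array means of the list were 7.49 to 7.55 and 7.61 to 7.80. The mesothelial markers Msln, Upk3b and Muc16 lay at level percentiles 31.1, 41.9 and 8.04 and overlapped between groups. Array means of the endothelial (10 markers), macrophage (11), smooth muscle (7), cholangiocyte (5) and lymphocyte (8) lists overlapped between groups. No marker of these lists passed the test. The mean was higher in reverted cells for 9 endothelial, 5 macrophage, 3 smooth muscle, 0 cholangiocyte and 2 lymphocyte markers. The endothelial list thus leaned higher, with a median log2 change of 0.22. In the smooth muscle list, Tagln and Acta2 stood higher by log2 changes of 0.66 and 0.50, with overlap, while 4 of 7 means were lower. In the macrophage list, Lyz2 stood higher by 0.59 without overlap, while 6 of 11 means were lower.

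Over all genes, limma with Benjamini-Hochberg adjustment called 142 of 19938 genes changed (adjusted p under 0.05), 105 as rises and 37 as falls. Quantile normalization of the arrays gave 128 rises and 91 falls. Of the 57 family members 2 passed, or 3.51%, against 0.712% of all genes. Both were rises, for which the share of all genes was 0.527%, and 0 members fell (0.186% of all genes). At an unadjusted p under 0.05 the family had 7 members with a higher and 8 with a lower mean in limma, or 26.3% of the members, against 16.0% of all genes. The median log2 change of the family was -0.02, and that of all genes -0.01.

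All 4 reverted arrays lay above all 4 quiescent arrays in 5 members (8.77%, against 4.64% of all genes) and below them in 6 (10.5%, against 4.09% of all genes). The 5 higher were Adam9, Adam12, Adam23, Adam26a and Adamts12, and the 6 lower were Adam6b, Adam8, Adam22, Adam34l, Adamtsl1 and Adamtsl5. Of these, Adam26a and Adam6b lay at the low end of the scale, at level percentiles 1.14 and 4.68. Their log2 changes were only 0.05 and -0.09. Among the 6 lower, 5 had a level below the median of all genes, as did 1 of the 5 higher. A 1.5-fold difference was reached by Adam23 and Adamts15, or 3.51% of the members against 0.607% of all genes, and neither passed the test. In 36 of the 57 members the log2 means of the groups differed by at most 0.1. Both calls fell among the 26 members whose level was at or above the median of all genes, where 1.11% of all genes were called. Of the 31 members below that median none passed, against 0.311% of all such genes, and 6 of them had an unadjusted p under 0.05 in limma.

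**Figure D1:**
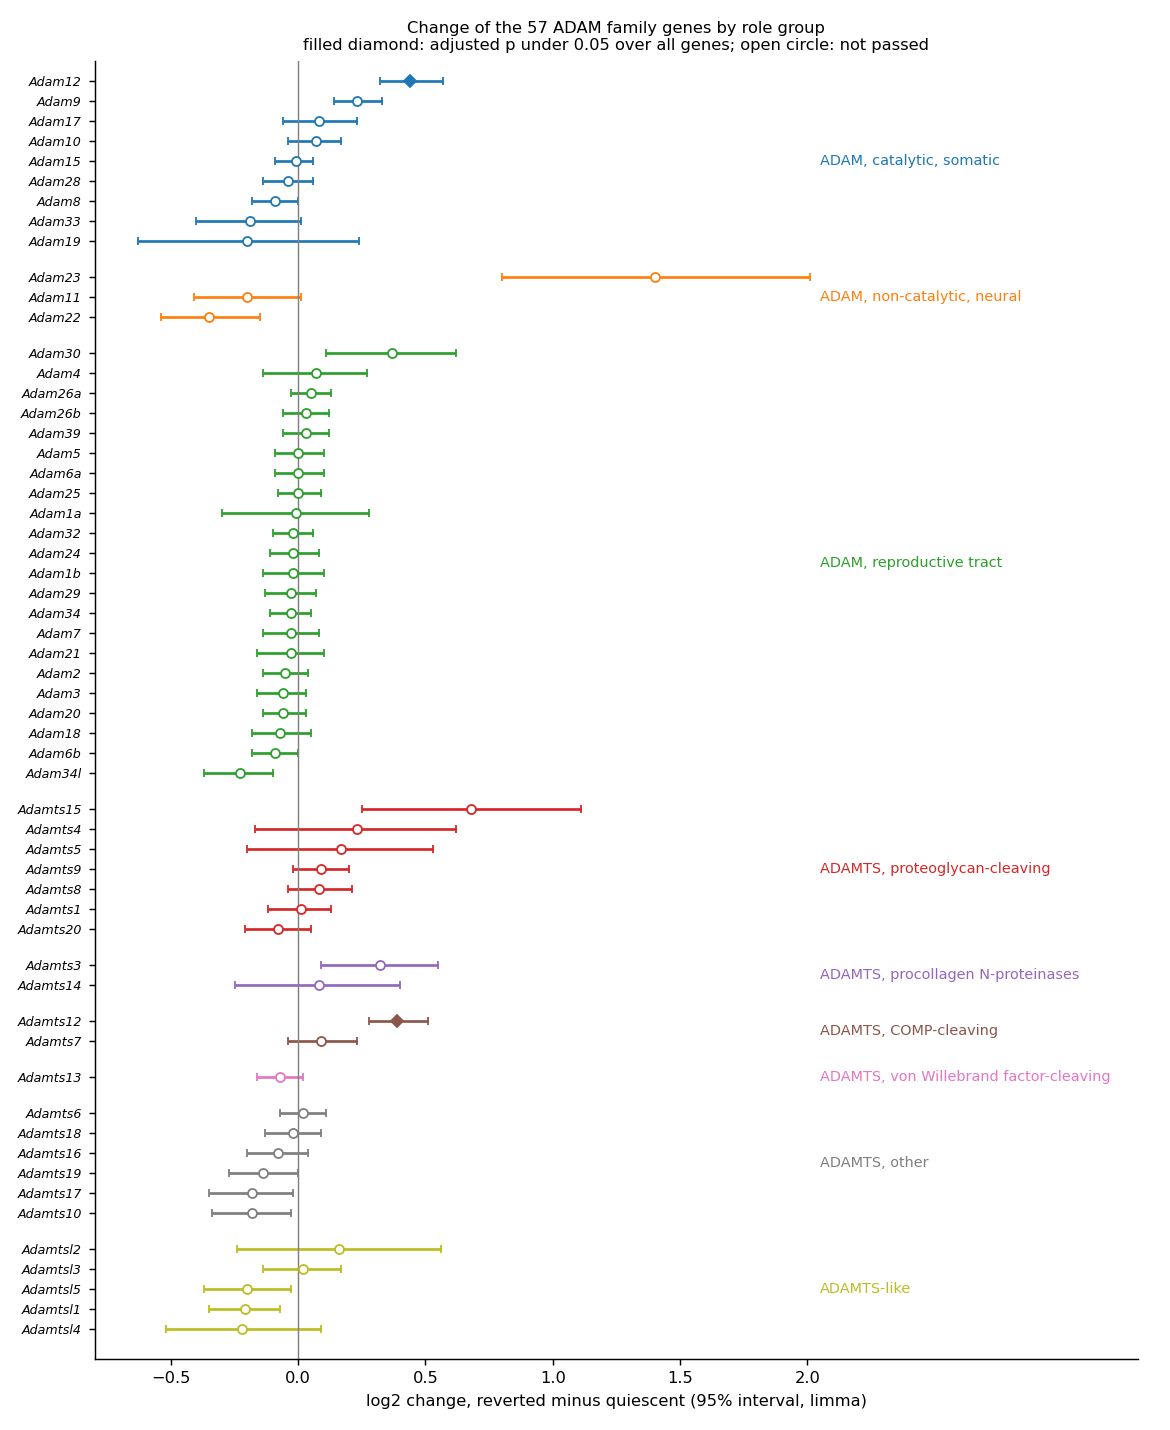
Log2 change (reverted minus quiescent) of each of the 57 members with its 95% interval from limma, grouped and coloured by role. Filled diamonds mark Adam12 and Adamts12, the members with an adjusted p under 0.05 over all 19938 genes, and Adam23 has the widest change (1.40, interval 0.80 to 2.01).

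The catalytic somatic ADAM genes held 9 members (Adam8, Adam9, Adam10, Adam12, Adam15, Adam17, Adam19, Adam28 and Adam33), of which 1 rose, 0 fell and 8 did not pass, with 3 at an unadjusted p under 0.05 in limma. Among all genes 0.527% rose, 0.186% fell and 16.0% had an unadjusted p under 0.05. These shares apply to every group and list below. Adam12 encodes a protease that cleaves insulin-like growth factor binding proteins and is known from regenerating muscle and from fibrogenic mesenchyme. Its log2 levels were 9.61, 9.48, 9.72 and 9.60 in quiescent arrays 1 to 4 and 10.11, 10.06, 10.00 and 10.01 in the reverted arrays. Every reverted array lay above every quiescent one, and the reverted values were the tighter set. The means were 9.60 ± 0.10 and 10.04 ± 0.05 (SD, n = 4), a log2 change of 0.44 (SE 0.06, 95% interval 0.32 to 0.57, adjusted p = 0.00964). Over the 8 fits that each left out 1 array, the adjusted p of Adam12 stayed between 0.0115 and 0.0396. With the mean of the hepatocyte markers as a covariate the log2 change was 0.47 and the adjusted p 0.0605, and with the mesothelial and portal fibroblast marker mean they were 0.41 and 0.254. In the latter fit, where the array means of the covariate do not overlap between groups, 0 of 19938 genes passed in limma, while 2772 had an unadjusted p under 0.05.

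Adam9, which sheds growth factor precursors and takes part in cell adhesion, did not pass the test. It stood at 11.96, 11.92, 11.92 and 12.07 in the quiescent arrays and at 12.22, 12.22, 12.19 and 12.18 in the reverted arrays. The groups did not overlap, and the reverted arrays spanned a narrow range. The log2 change was 0.23 (SE 0.04, 95% interval 0.14 to 0.33, adjusted p = 0.0506). Without quiescent array 4, the highest of its group for this gene, the change was 0.27 and the adjusted p 0.0228, while without any other array it lay between 0.0842 and 0.15. The probe set lay at level percentile 95.0, among the brightest of the array, where differences can be compressed.

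Adam10, which cleaves Notch receptors and many cell adhesion proteins, stood at 11.29, 11.32, 11.43 and 11.43 in quiescent and at 11.42, 11.50, 11.39 and 11.43 in reverted arrays. Adam17, which releases tumour necrosis factor and ligands of the EGF receptor, stood at 10.56, 10.47, 10.74 and 10.73 and at 10.67, 10.71, 10.68 and 10.77. For both genes the groups overlapped. The log2 change was 0.07 for Adam10 (95% interval -0.04 to 0.17, adjusted p = 0.499) and 0.08 for Adam17 (-0.06 to 0.23, adjusted p = 0.542), so that rises of more than 1.13-fold and 1.17-fold lay outside these intervals. The remaining 5 genes of the group had log2 changes between -0.20 and -0.01 with adjusted p between 0.303 and 0.856. Among them Adam19 had the widest interval, since its reverted arrays ran from 9.63 in array 2 to 10.53 in array 4; it was singled out after its values were seen.

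The non-catalytic ADAM genes Adam11, Adam22 and Adam23 lack a working protease site and serve as receptors of LGI proteins, secreted organizers of synapses. None of the 3 passed in limma, 2 had an unadjusted p under 0.05, and their changes pointed both ways. Adam23 stood at 8.14, 9.27, 8.25 and 8.62 in the quiescent arrays and at 9.90, 10.58, 9.62 and 9.79 in the reverted arrays. The groups did not overlap, but array 2 was the highest of either group and the quiescent arrays spread widely. The means were 8.57 ± 0.51 and 9.97 ± 0.42 (SD, n = 4), a log2 change of 1.40 (SE 0.27, 95% interval 0.80 to 2.01, adjusted p = 0.0553), or 2.64-fold with an interval of 1.74-fold to 4.02-fold. Without quiescent array 2 the change was 1.64 and the adjusted p 0.0207, while leaving out any other array gave adjusted p between 0.0656 and 0.148.

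Adam22 lay the other way, at 6.35, 6.16, 6.40 and 6.61 in quiescent and 6.07, 5.93, 6.05 and 6.08 in reverted arrays. All reverted arrays were below all quiescent arrays, by a log2 change of -0.35 (SE 0.09, 95% interval -0.54 to -0.15, adjusted p = 0.12), so that the difference did not pass. With a level percentile of 18.5 the probe set was dim, and dim signals can understate a change. Dim genes also leaned lower as a whole. Of the 9968 genes below the median level, 7105 had a lower and 2863 a higher mean in reverted cells. The reverted arrays lay wholly below in 491 of them and wholly above in 148. Adam11 had a log2 change of -0.20 with overlapping groups (adjusted p = 0.337).

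The largest role group was that of 22 members known from testis or epididymis, many of which take part in the maturation and binding of sperm. Of these, 0 rose and 0 fell in limma, and 19 lay below level percentile 25. An unadjusted p under 0.05 was found for 3 of the 22, against 16.0% of all genes. The median log2 change was -0.02, and 20 of the 22 differed by at most 0.1. Adam34l stood at 6.04, 6.07, 5.97 and 6.00 in quiescent and 5.87, 5.64, 5.75 and 5.89 in reverted arrays, which made -0.23 on the log2 scale (SE 0.06, adjusted p = 0.133) with the groups apart. Adam30 stood at 7.51, 7.12, 7.22 and 7.51 and at 7.50, 7.86, 7.59 and 7.86, a log2 change of 0.37 (SE 0.11, adjusted p = 0.185) with overlap. These were the members of the group with the smallest p, and the other 20 had changes between -0.09 and 0.07 and adjusted p between 0.305 and 0.977. Several lie side by side, such as Adam26a, Adam26b, Adam34 and Adam34l. The likeness of their sequences to the probes was not examined, so signals of single copies are uncertain here. In the family as a whole, 2 probe sets carry a member's symbol among several, and they were not used.

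Of the 7 proteoglycan-cleaving ADAMTS genes (Adamts1, Adamts4, Adamts5, Adamts8, Adamts9, Adamts15 and Adamts20), which cut versican, aggrecan or related core proteins, 6 means were higher in reverted cells and 1 was lower. In limma 0 rose, 0 fell and 1 had an unadjusted p under 0.05. Adamts15 stood at 9.12, 9.10, 9.47 and 9.79 in quiescent and at 10.24, 10.40, 9.89 and 9.67 in reverted arrays. Reverted arrays 1 and 2 were the highest of the 8, whereas reverted array 4 lay below quiescent array 4. The log2 change was 0.68 (SE 0.19, 95% interval 0.25 to 1.11, adjusted p = 0.154), or 1.60-fold.

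Adamts1, known for versican cleavage and as a gene of acute tissue responses, stood at 13.28, 13.34, 13.16 and 13.40 in quiescent and at 13.25, 13.30, 13.30 and 13.35 in reverted arrays. The log2 change was 0.01 (95% interval -0.12 to 0.13, adjusted p = 0.955), and its sign turned in 3 of the 20 alternatives. Its probe set lay at level percentile 99.1. Adamts5, a main aggrecanase of cartilage, stood at 11.44, 10.70, 11.27 and 11.25 and at 11.67, 11.12, 11.22 and 11.31. Array 2 was the lowest of either group, and the log2 change was 0.17 (95% interval -0.20 to 0.53, adjusted p = 0.628), so that a rise of up to 1.45-fold lay within the interval. The other 4 genes had changes between -0.08 and 0.23, with adjusted p between 0.41 and 0.53.

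Adamts12 and Adamts7 cleave cartilage oligomeric matrix protein (COMP), a thrombospondin of the matrix, and 1 of the 2 rose. Adamts12 stood at 10.74, 10.59, 10.65 and 10.72 in quiescent and at 11.03, 11.17, 11.02 and 11.06 in reverted arrays. Every reverted array lay above every quiescent array, and the spread was alike in both groups. The means were 10.68 ± 0.07 and 11.07 ± 0.07 (SD, n = 4), a log2 change of 0.39 (SE 0.05, 95% interval 0.28 to 0.51, adjusted p = 0.011). When any 1 array was left out, the adjusted p of Adamts12 stayed between 0.0216 and 0.049. With the mean of the hepatocyte markers as a covariate the change was 0.48 and the adjusted p 0.0231, and with the mesothelial and portal fibroblast marker mean, where no gene of the array passed, they were 0.51 and 0.212. Adamts7 had a log2 change of 0.09 with overlapping groups (adjusted p = 0.471).

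**Figure D2:**
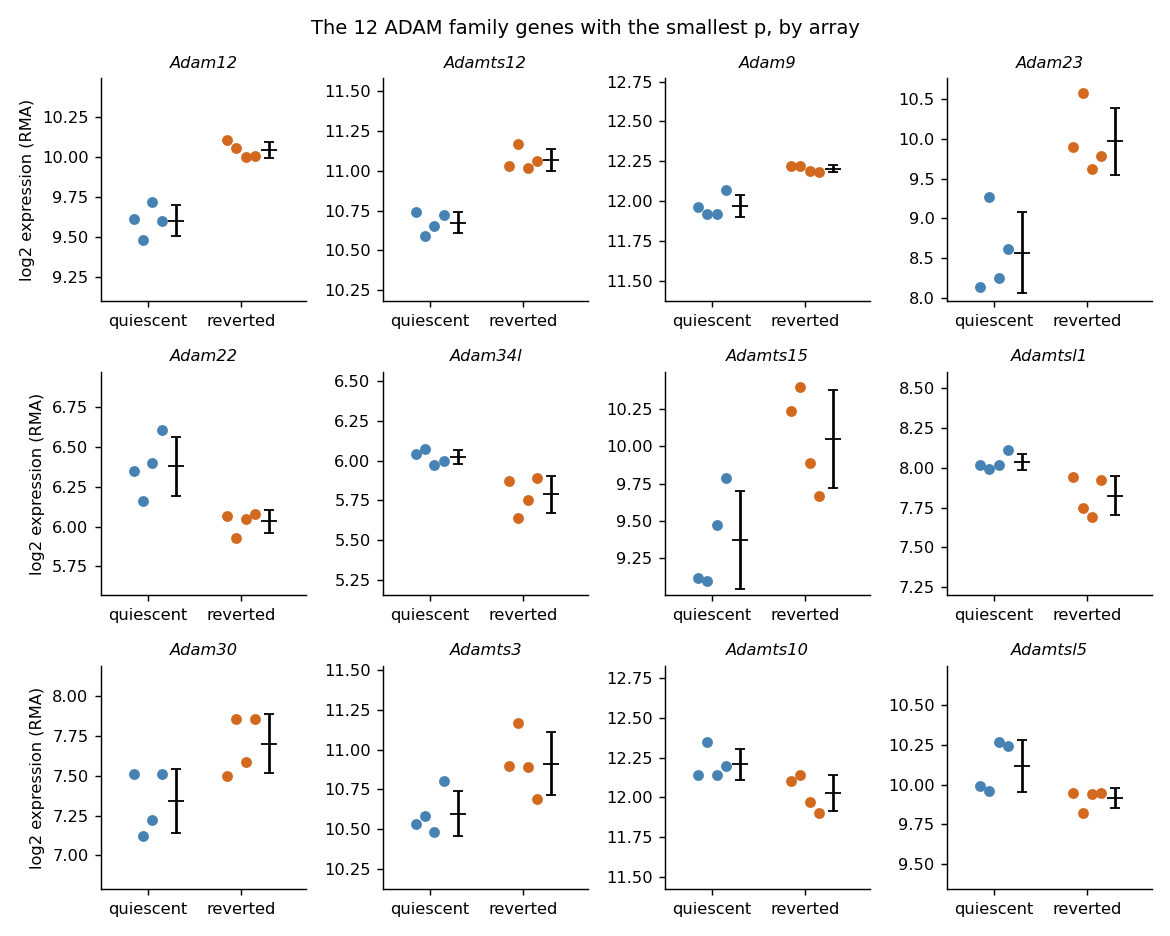
Log2 expression of the 12 members with the smallest p in each of the 4 quiescent (blue) and 4 reverted (orange) arrays, with the mean and SD beside the points. Each panel has its own axis range. The groups do not overlap in Adam12, Adamts12, Adam9, Adam23, Adam22, Adam34l, Adamtsl1 and Adamtsl5, and they overlap in Adamts15, Adam30, Adamts3 and Adamts10.

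The procollagen N-proteinases remove the amino-terminal propeptide of fibrillar procollagens, and Adamts3 also activates the lymphatic growth factor Vegfc. Adamts3 and Adamts14 were measured, and Adamts2 was not analysed here. Neither passed in limma, and 1 had an unadjusted p under 0.05. Adamts3 stood at 10.53, 10.58, 10.48 and 10.80 in quiescent and at 10.90, 11.17, 10.89 and 10.69 in reverted arrays. Reverted array 4 lay below quiescent array 4, and the other reverted arrays lay above all quiescent arrays. The log2 change was 0.32 (SE 0.10, 95% interval 0.09 to 0.55, adjusted p = 0.196). Adamts14 had a log2 change of 0.08 (adjusted p = 0.814).

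Adamts3 was covered by 16 probe sets, and all 16 had a higher mean in reverted cells, with log2 changes from 0.23 to 0.57 and a median of 0.33. In 3 of them no reverted array overlapped a quiescent array. The smallest adjusted p over all 35556 probe sets was 0.195, and the mean of the 16 had a log2 change of 0.34 (adjusted p = 0.189). These probe sets read the same RNA and are no replicates of the comparison. The 6 probe sets of Adamts9 also all had a higher mean, by 0.09 to 0.16, and the 5 of Adamts17 and the 2 of Adamtsl1 a lower one. No probe set of these 4 genes disagreed in direction with the one used for the gene.

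**Figure D3:**
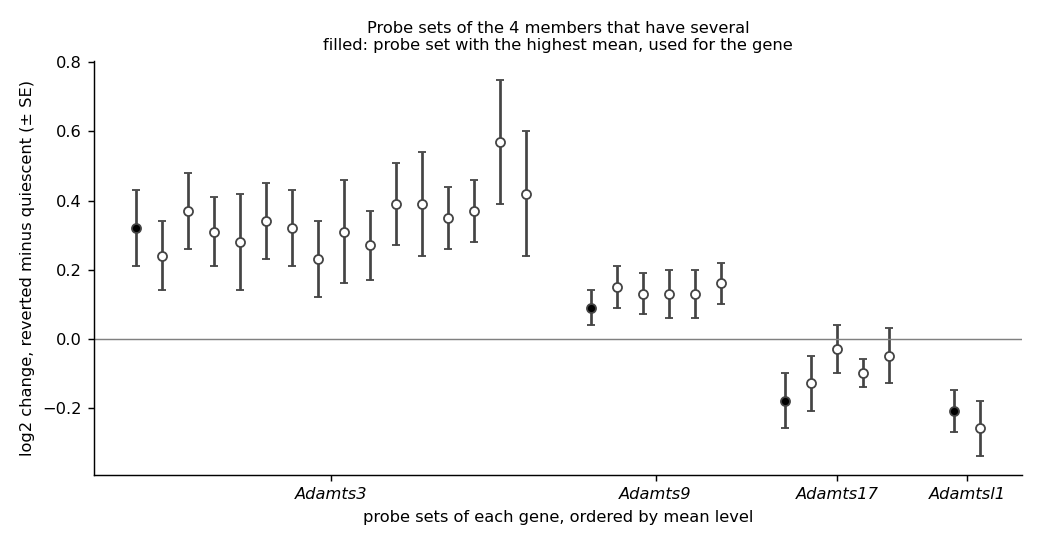
Log2 change (reverted minus quiescent, with the SE) of every probe set of the 4 members that have several, in the order of mean level within each gene, with the probe set used for the gene filled. All 16 probe sets of Adamts3 lie above 0, between 0.23 and 0.57, and all 5 of Adamts17 lie below it.

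Adamts13, which cuts von Willebrand factor and thereby limits platelet adhesion, stood at 12.30, 12.32, 12.28 and 12.32 in quiescent and at 12.19, 12.32, 12.20 and 12.24 in reverted arrays. The groups overlapped through reverted array 2. The log2 change was -0.07 (SE 0.04, 95% interval -0.16 to 0.02, adjusted p = 0.434). A fall below 0.898-fold therefore lay outside the interval, although the probe set was bright, at level percentile 95.9.

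Of the other 6 ADAMTS genes (Adamts6, Adamts10, Adamts16, Adamts17, Adamts18 and Adamts19), 5 had a lower and 1 a higher mean. In limma 0 rose, 0 fell and 2 had an unadjusted p under 0.05. Adamts10, which binds fibrillin microfibrils, stood at 12.14, 12.35, 12.14 and 12.20 in quiescent and at 12.10, 12.14, 11.97 and 11.90 in reverted arrays. Its log2 change was -0.18 (SE 0.07, 95% interval -0.34 to -0.03, adjusted p = 0.246), and the groups overlapped. The other 5 had changes between -0.18 and 0.02, with adjusted p between 0.278 and 0.863.

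The 5 ADAMTS-like genes, some of whose products associate with fibrillin microfibrils, had 3 lower and 2 higher means, 0 rises and 0 falls in limma, and 2 members at an unadjusted p under 0.05. Adamtsl1 stood at 8.02, 7.99, 8.02 and 8.11 in quiescent and at 7.94, 7.75, 7.69 and 7.92 in reverted arrays. Adamtsl5 stood at 9.99, 9.96, 10.27 and 10.24 and at 9.95, 9.82, 9.94 and 9.95. In both genes all reverted arrays were below all quiescent arrays, in each by a margin smaller than the range of its quiescent arrays. The log2 changes were -0.21 (SE 0.06, 95% interval -0.35 to -0.07, adjusted p = 0.167) and -0.20 (SE 0.08, -0.37 to -0.03, adjusted p = 0.257), so neither passed. Adamtsl2, Adamtsl3 and Adamtsl4 had changes between -0.22 and 0.16. The level percentile of Adamtsl1 was 48.0, below the median level, where genes leaned lower as a whole.

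By gene order in RefSeq's GRCm38.p6 table, 21 members lay in 7 runs with no other protein-coding gene between them. Adam9 is the last gene of a run with Adam18, Adam3, Adam5 and Adam32, and the other 4 had log2 changes between -0.07 and 0.00, with a lowest adjusted p of 0.485. Adamts15 lies beside Adamts8, whose change was 0.08, and Adamts1 beside Adamts5. No run held a called member.

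**Figure D4:**
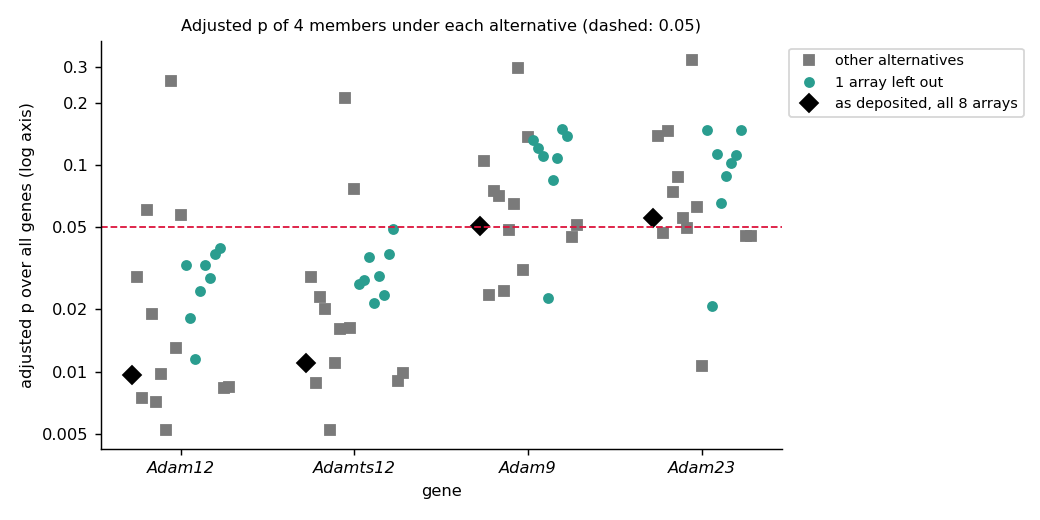
Adjusted p over all genes tested (log axis) of Adam12, Adamts12, Adam9 and Adam23 as deposited (black diamonds), with 1 array left out (green circles) and under the other alternatives (grey squares), against the threshold of 0.05 (dashed). Adam12 passed in 17 and Adamts12 in 18 of 20 alternatives, and Adam9 and Adam23 passed in 6 each.

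The genes around the proteases were counted from lists of inhibitors, maturation factors and substrates. Of 9 inhibitors and cofactors 0 rose and 0 fell in limma, and 7 had an unadjusted p under 0.05, against 16.0% of all genes. The 2 of smallest p were Timp1, with a log2 change of 0.62 (adjusted p = 0.14), and the membrane-anchored inhibitor Reck, with -0.12 (adjusted p = 0.163). Neither overlapped between groups. Among all 9, the reverted arrays lay wholly above in 2 (4.64% of all genes) and wholly below in 3 (4.09%). The log2 changes of the 9 ran from -0.14 to 0.67, so that of Timp1 was not the largest. Of 13 genes for the maturation and traffic of Adam10 and Adam17, 0 rose and 0 fell, and 2 had an unadjusted p under 0.05. These were the tetraspanin Tspan14 (0.31, adjusted p = 0.107), a partner of Adam10, and the proprotein convertase Pcsk6 (-0.40, adjusted p = 0.144).

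Of 27 membrane proteins known to be shed, 3 rose, 0 fell and 24 did not pass, against 0.527% rises among all genes. The EGF receptor ligand Ereg had a log2 change of 1.27 (adjusted p = 0.0276), the hyaluronan receptor Cd44 of 0.59 (adjusted p = 0.0334) and the interleukin 6 receptor Il6ra of 0.51 (adjusted p = 0.0162). For Il6ra the adjusted p passed 0.05 when quiescent array 1 (0.0572), reverted array 3 (0.0653) or reverted array 4 (0.0572) was left out. For Ereg this held of quiescent arrays 1 (0.0818) and 2 (0.0726) and of reverted arrays 1 (0.0621), 3 (0.104) and 4 (0.106). For Cd44 it held of each array except quiescent array 4 and reverted array 2, the adjusted p reaching 0.117. With the hepatocyte marker mean in the fit, the log2 changes were as large or larger, at 1.44 for Ereg, 0.64 for Cd44 and 0.54 for Il6ra, while the adjusted p was 0.0845, 0.108 and 0.08. With all probe sets tested the adjusted p was 0.079 for Ereg and 0.0894 for Cd44. The sheddase substrates Sdc4 (0.17, adjusted p = 0.117) and Notch3 (0.71, adjusted p = 0.118) did not pass.

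Of 13 proteoglycan and COMP-related substrates 1 rose and 0 fell, against 0.527% rises among all genes. The riser was Thbs1, which encodes the matricellular protein thrombospondin 1, with a log2 change of 1.00 (adjusted p = 0.00947). With the hepatocyte covariate its change was 1.10 and the adjusted p 0.0548. The basement membrane protein Nid2 (0.14, adjusted p = 0.306) and the proteoglycan Ncan (-0.20, adjusted p = 0.332) did not pass. Of 11 genes of fibrillin microfibrils and of the sugar modification of thrombospondin repeats, 1 rose and 0 fell, namely Ltbp1 (0.60, adjusted p = 0.016), which binds latent TGF-beta. The adjusted p of Ltbp1 was 0.055 without quiescent array 1 and, at a log2 change of 0.50, 0.0999 with the hepatocyte marker mean. Ltbp4 (-0.11, adjusted p = 0.26) and the glucosyltransferase B3glct (-0.13, adjusted p = 0.288) did not pass. Of 13 procollagen processing genes and procollagens 0 rose and 0 fell in limma, and 4 had an unadjusted p under 0.05, against 16.0% of all genes. Among the 4 were Col5a2 at 0.22 (adjusted p = 0.14) and Col5a1 at -0.14 (adjusted p = 0.194). With the mesothelial and portal fibroblast marker mean as a covariate, under which no gene of the array passed, the log2 change was 1.06 for Thbs1, 0.57 for Il6ra, 1.21 for Ereg, 0.59 for Cd44 and 0.41 for Ltbp1, with adjusted p between 0.246 and 0.317. Of these 5 changes only that of Ltbp1 was smaller by more than 0.1 than without the covariate. Since the array means of this covariate do not overlap between groups, the fit cannot separate it from the group. No conclusion is drawn from the size of these changes. The array means of hepatocyte markers were 0.45 higher in reverted cells, and the part of other cell types in these results was not tested. In these sorted cells, fewer cells of a type and less RNA per cell cannot be told apart.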

How the data were processed

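Expression was measured on 8 GeneChip whole-transcript arrays, 4 per group, from 150 ng of RNA each. The values the authors deposited are on the log2 scale and come from RMA, per the submitters' processing notes, a method that removes background, aligns the arrays and combines probes; no version, settings or build is given in the sources used here. The table held 35556 probe sets, of which 23410 are listed in the platform's annotation, 21789 with 1 symbol and 1621 with several; the latter named no gene. Entrez identifiers of all 57 members were matched in RefSeq's GRCm38.p6 table. No detection threshold was applied, and precision is limited by the number of arrays.

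The comparison used limma 3.58.1 (lmFit, eBayes; R 4.3.3), two-sided, without covariates or a filter on dim genes, with adjustment over all 19938 genes. Steps were tested on simulated data. Tables and plots used Python 3.11.15, pandas 2.3.3 and matplotlib 3.10.9. Level percentiles rank a gene's mean on the arrays' scale and do not compare abundance between genes. Every array is given for called members, for those of smallest p up to 12 in all, for the member of smallest p in each role group and, whatever their test, for Adam10, Adam17, Adamts1, Adamts5 and Adamts13; Adamts2 was on this list but not analysed here. The other 40 are given by range, and those named were chosen after their values were seen. From each partner list, called genes and the 2 others of smallest p were named. Members and lists were chosen with earlier results of these data known. Alternatives changed the normalization, the choice of probe set, the variance model, dim-gene filters and covariates, or left out 1 array.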

Additional observations from a re-analysis of the deposited data

Results flagged for a closer look

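In the reverted group, array 2 had an Adamtsl5 log2 level of 9.82, set apart from the other reverted arrays at 9.94 to 9.95 by 0.87 of the group's whole range. This was 1 such value among 34 sets of 4 arrays examined for 17 members, and chance gives about 1 in 20.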

How the results depend on the processing

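Calls depended on the processing more than directions did. The count of called members was 2 as deposited and 2 to 3 with each array left out, 4 with array weights or without the lower 50% of genes by level, 1 with hepatocyte markers as covariate, and 0 with mesothelial and portal fibroblast markers as covariate in limma (10 at an unadjusted p under 0.05). Over all genes, 142 were called as deposited, 78 with all probe sets tested, 306 with array weights, 38 with the hepatocyte covariate, 0 with the mesothelial covariate (2772 at an unadjusted p under 0.05), 219 after quantile normalization, and 54 to 247 with each array left out. It was 73 when quiescent array 1 was left out, 247 for quiescent array 4, 59 for reverted array 3 and 54 for reverted array 4. The replicate number as a block in limma left 63 called genes and 1 called member, Adam23 (adjusted p = 0.0106). In that fit the adjusted p was 0.0573 for Adam12 and 0.077 for Adamts12. Deviations of same-numbered arrays correlated at -0.148 to 0.081, and no quiescent array correlated best with the reverted array of its number. With 4 arrays per group these correlations cannot decide whether same-numbered arrays were paired, and the labels do not state a pairing. The sign turned for Adamts1 with immediate early genes as covariate (-0.00) and with arrays left out (-0.04 to 0.04, below 0 for quiescent array 3 at -0.04 and reverted array 4 at -0.01), and with the mesothelial covariate for Adamts13 (0.01) and Adamts5 (-0.12); none of these had passed. The causes were not tested. In the alternatives that kept all 57 members, the family's median log2 change stayed between -0.034 and 0.004. The dim-gene filters left 33 and 26 members, a different set, with medians of 0.067 and 0.071.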
